A study of Mus musculus with 11 samples.

Results

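The genes described here are the 9 mouse genes of MHC class II antigen presentation, H2-Aa, H2-Ab1, H2-Eb1, H2-DMa, H2-DMb1, H2-Oa, H2-Ob, Cd74 and Ciita, chosen by name from 22196 genes built from the deposited tables. Of these 9, 7 passed the filter on low counts and were among the 12716 genes tested between genotypes, and H2-Oa and H2-Ob did not pass it. RNA was sequenced from inguinal mammary glands in 11 libraries. The 6 Knockout libraries were of genotype Tsc1-fl/fl; Adipoq-Cre-Tg/+ and the 5 Wild-Type libraries of genotype Tsc1-fl/fl; Adipoq-Cre-+/+, so that both groups carried the floxed Tsc1 alleles and only the Knockout carried the Cre transgene. Glands were taken 16 days after delivery from mice on a normal chow diet, and the age label reads PND16.5. Tsc1 is part of the complex that restrains the growth kinase mTORC1, and the Adipoq promoter drives Cre in adipocytes, so other cells of the gland are not the target of the deletion. The labels name no litter and no inbred strain, and nothing in them says outright that each library is a separate mouse, so the p-values measure the spread between these libraries.

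MHC class II molecules are pairs of an alpha and a beta chain that hold peptides from taken-up proteins in front of CD4 T cells. They are assembled with the invariant chain, encoded by Cd74, whose remnant CLIP is later exchanged for a peptide with the help of the DM dimer (H2-DMa and H2-DMb1), while the DO dimer (H2-Oa and H2-Ob), made mostly in B cells, holds DM back. Transcription of nearly all of these genes depends on the coactivator CIITA, encoded by Ciita, which is recruited to a promoter module of an X box and a Y box bound by RFX, CREB and NF-Y. B cells, dendritic cells and macrophages are the usual sources of class II in tissue, and the inguinal gland also encloses a lymph node.

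The X and Y box stretches are shown because they are the sequence that ties the members together. RefSeq promoter windows of 250 bases before to 50 bases after the annotated start (GRCm38.p6) were matched by symbol for 6 of the 9 members, namely H2-Aa, H2-Eb1, H2-DMa, H2-DMb1, H2-Oa and H2-Ob, and not for H2-Ab1, Cd74 and Ciita. Within them the letters GNAAC, a spacer of 22 to 30 bases and then ATTGG were searched on both strands, a pattern written down after the sequences had been read. It was present in 5 of the 6, all on chromosome 17, and the stretches of H2-Aa, H2-Eb1, H2-Oa and H2-Ob are printed 5′ to 3′ on the strand of its gene with GNAAC (the start of the X box) and ATTGG (the Y box, CCAAT on the other strand) in capitals.
H2-Aa: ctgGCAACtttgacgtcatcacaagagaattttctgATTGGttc
H2-Eb1: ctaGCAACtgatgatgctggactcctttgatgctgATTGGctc
H2-Oa: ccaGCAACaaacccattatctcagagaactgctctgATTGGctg
H2-Ob: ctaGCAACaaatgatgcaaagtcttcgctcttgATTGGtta
The stretches lie at chr17:34287864-34287907 on the minus strand for H2-Aa, and on the plus strand at chr17:34305773-34305815 for H2-Eb1, chr17:34153094-34153137 for H2-DMb1, chr17:34092300-34092343 for H2-Oa and chr17:34238815-34238855 for H2-Ob. The spacer was 28 bases in H2-Aa, H2-DMb1 and H2-Oa, 27 in H2-Eb1 and 25 in H2-Ob, and the Y box ended 38 to 56 bases before the start annotated by RefSeq. GENCODE M21, from which the gene coordinates in the text are taken, starts H2-DMb1 and H2-Oa further upstream, so that by its models the H2-DMb1 stretch lies in the first exon (and is not printed) and the last 4 bases of the H2-Oa stretch do. Of all 32851 promoter windows of the same length, 1.53% held the spaced pattern on either strand, and 37.4% held CCAAT on either strand, as did an entry of each of the 6 matched members. A match of letters is a description, not a measured binding site. These promoters belong to members that were read strongly (H2-Aa, H2-Eb1) and to members near 0 in most libraries (H2-Oa, H2-Ob).

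The libraries held 25817975 to 37894237 estimated reads. Levels are given as CPM, read counts set to the same library total, after TMM scaling, an edgeR step that corrects that total for the make-up of each library, and TMM factors ran from 0.842 to 1.22. Tsc1 itself, read over the whole gland, stood at a median of 10.1 CPM in the Knockout (8.31 to 11.9) and at 12.2, 9.77, 10.7, 11.5 and 9.55 CPM in Wild-Type 1 to 5, at a log2 fold change of -0.09 ± 0.11 SE (adjusted p = 0.772, edgeR quasi-likelihood test), so the targeted gene gives no check of the labels in this mixed tissue. Luminal epithelial markers (Krt8, Krt18, Epcam, Elf5 and Cdh1) summed to 559 to 907 CPM in the Knockout and 449 to 816 CPM in the Wild-Type libraries, and adipocyte markers to 752 to 1389 and 443 to 763 CPM. The members together took 0.0286% to 0.0594% of a library's reads.

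H2-Aa and H2-Ab1 encode the alpha and beta chains of the I-A molecule, and H2-Eb1 the beta chain of I-E. H2-Aa (ENSMUSG00000036594, chromosome 17, 34282744 to 34287823, minus strand) had a lowest level of 59.1, a median of 78.0 and a highest of 87.2 CPM over the 6 Knockout libraries. In the Wild-Type libraries 1 to 5 H2-Aa stood at 76.9, 109, 71.5, 80.4 and 125 CPM. Wild-Type 2 and Wild-Type 5 were above every Knockout library, and the other Wild-Type libraries lay inside the Knockout range. The log2 fold change of Knockout over Wild-Type was -0.31 ± 0.16 (SE) for H2-Aa, which did not pass the threshold (edgeR quasi-likelihood test, Benjamini-Hochberg adjusted p = 0.454 over all genes tested).

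H2-Ab1 (ENSMUSG00000073421, chromosome 17, 34257689 to 34269419) ran from 51.6 through a median of 67.4 to 75.8 CPM in the Knockout, and stood at 71.0, 88.3, 59.4, 70.3 and 109.9 CPM in Wild-Type 1 to 5. H2-Eb1 (ENSMUSG00000060586, chromosome 17, 34305867 to 34316674) ran from 52.7 through a median of 70.9 to 84.4 CPM in the Knockout, and stood at 71.9, 97.8, 66.2, 68.6 and 113 CPM in Wild-Type 1 to 5. Both beta chains repeated the order seen for H2-Aa, with Wild-Type 5 and then Wild-Type 2 at the top and groups that overlapped below them. Neither passed the threshold, at log2 fold changes of -0.29 ± 0.16 (SE) for H2-Ab1 and -0.27 ± 0.17 for H2-Eb1 (edgeR, adjusted p = 0.473 and 0.525). H2-Eb1 overlaps an antisense gene on the other strand, and the strand setting of the quantification is not given in the sources used here.

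Cd74 (ENSMUSG00000024610, chromosome 18, 60803848 to 60812652), the invariant chain that fills the peptide groove during assembly, had the most reads of the 9 members in every library. It ran from 110.4 through a median of 154 to 174.9 CPM in the Knockout. In Wild-Type 1 to 5 it stood at 170.6, 208, 155.8, 159.6 and 242 CPM. Again Wild-Type 2 and Wild-Type 5 were above all Knockout libraries and the other 3 Wild-Type libraries were not. Its log2 fold change of -0.35 ± 0.15 (SE) had an unadjusted p of 0.0337 and an adjusted p of 0.369 (edgeR), so that it did not pass the threshold over all genes tested. It was the only tested member with an unadjusted p under 0.05, a level that 12.4% of all genes tested reached.

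**Figure D1:**
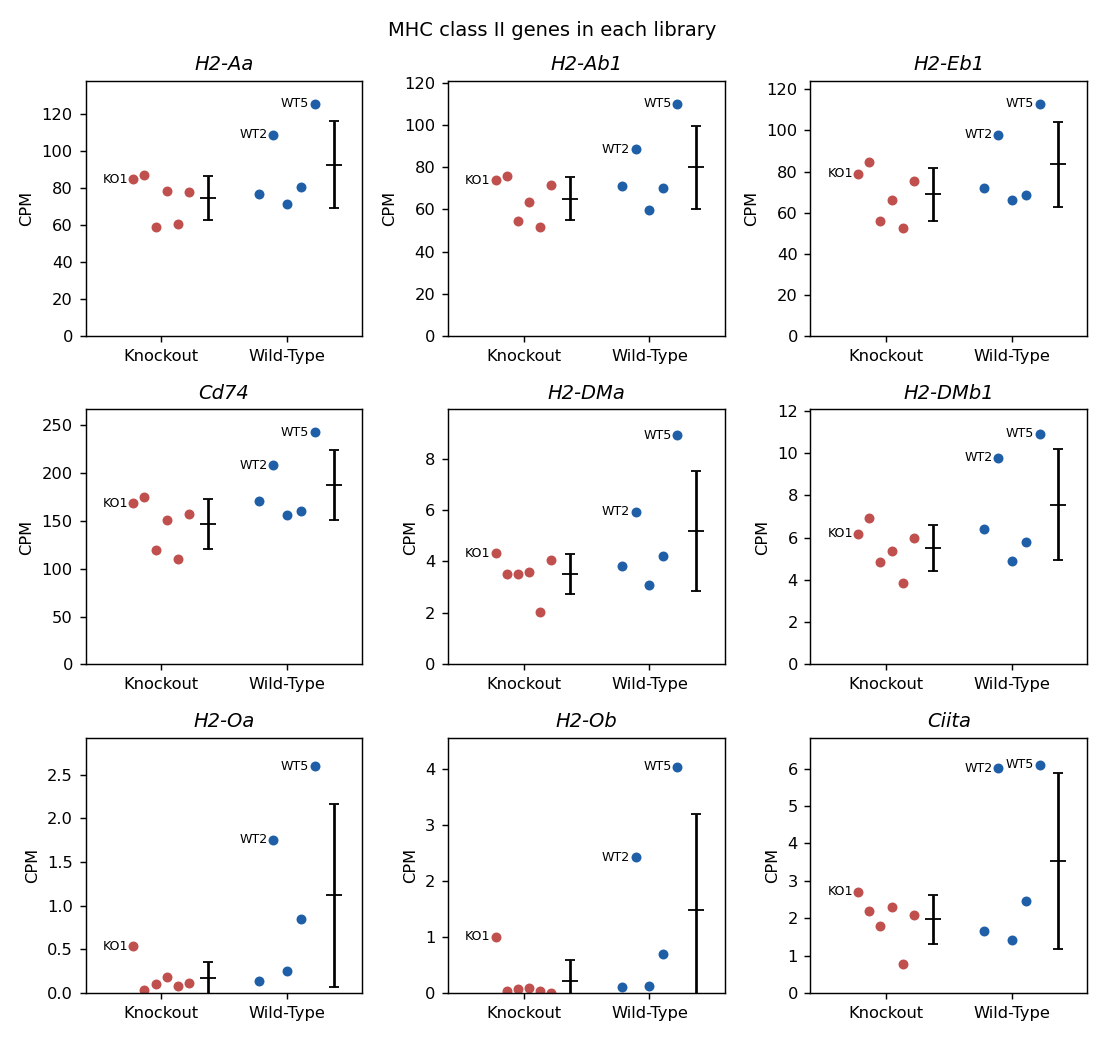
TMM-scaled CPM of each of the 9 class II genes (one panel per gene, linear axis from 0) in the 6 Knockout and 5 Wild-Type libraries; each dot is a library and the black bar beside a group is its mean with the SD, drawn only down to 0. Wild-Type 5 (WT5) is the highest dot and Wild-Type 2 (WT2) the second in all 9 panels, and Knockout 1 (KO1) is the highest Knockout dot for H2-Oa and H2-Ob.

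The DM genes had fewer reads than the classical chains and the same top libraries. H2-DMa (ENSMUSG00000037649, chromosome 17, 34119541 to 34139101), its alpha chain, ran from 2.06 through a median of 3.56 to 4.33 CPM in the Knockout. In Wild-Type 1 to 5 it stood at 3.82, 5.93, 3.08, 4.22 and 8.91 CPM, and Wild-Type 3 was lower than 5 of the 6 Knockout libraries. In log2 terms the Knockout differed by -0.56 ± 0.26 SE from the Wild-Type (adjusted p = 0.416 with edgeR). By the spans of the genes H2-DMa lies across Brd2 on the opposite strand. Whether the overlap takes in quantified sequence was not examined, and any reads from it cannot be assigned without the strand.

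H2-DMb1 (ENSMUSG00000079547, chromosome 17, 34153072 to 34160230), the beta chain of DM, ran from 3.86 through a median of 5.68 to 6.92 CPM in the Knockout. In Wild-Type 1 to 5 it stood at 6.41, 9.77, 4.87, 5.80 and 10.9 CPM. Only Wild-Type 2 and Wild-Type 5 were outside the Knockout range. The fitted log2 fold change, -0.45 ± 0.22 SE, had an adjusted p of 0.424 (edgeR). H2-DMb1 is uncertain, because 60.7% of its words of 31 bases are shared with the neighbouring copy H2-DMb2, between which the quantification had to split reads. H2-DMb2 had a larger difference in the same direction, described below with the other genes of the locus.

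The DO dimer was at the edge of detection. H2-Oa (ENSMUSG00000024334, chromosome 17, 34092340 to 34095234), its alpha chain, had 1 to 74 reads per library. It ran from 0.0341 through a median of 0.106 to 0.533 CPM in the Knockout, and stood at 0.140, 1.75, 0.251, 0.850 and 2.60 CPM in Wild-Type 1 to 5. Wild-Type 2, 4 and 5 were above every Knockout library, and Wild-Type 1 and 3 were inside the Knockout range. The mean log2 CPM, with a prior count of 2, differed by -1.99 (Knockout minus Wild-Type), with p = 0.0346 by an exact permutation test over 462 arrangements of the libraries (two-sided; 0.0649 adjusted over the 2 DO genes).

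H2-Ob (ENSMUSG00000041538, chromosome 17, 34238903 to 34254414), the beta chain of DO, had 0 to 115 reads. In the Knockout it was at 0 in Knockout 6, where a count of 0 allows up to 3 reads, with a median of 0.0514 and a highest level of 0.999 CPM in Knockout 1. In Wild-Type 1 to 5 it stood at 0.105, 2.42, 0.126, 0.699 and 4.04 CPM. Knockout 1 thus lay above 3 of the 5 Wild-Type libraries, while the other 5 Knockout libraries were at 0.0902 CPM or less and below all Wild-Type libraries. The mean log2 CPM differed by -2.30 (exact permutation test, two-sided, p = 0.0649, also 0.0649 adjusted over the 2 genes). The smallest p this design allows is 0.00216. Leaving out Knockout 1, the highest Knockout library for both DO genes, brought the p adjusted over these 2 genes alone under 0.05. On 5 Knockout and 5 Wild-Type libraries the differences were -2.31 for H2-Oa and -2.86 for H2-Ob (exact permutation test, adjusted p = 0.0159 for each). The same held without Wild-Type 1 (-2.47 and -2.84, adjusted p = 0.0190 and 0.0286) or Wild-Type 3 (-2.32 and -2.80, adjusted p = 0.0381 for each), the lowest Wild-Type libraries. These removals could only widen the difference. The differences were smaller and the adjusted p higher without Wild-Type 5 (-1.55 and -1.69, adjusted p = 0.133 and 0.148) and without Wild-Type 2 (-1.68 and -1.87, adjusted p = 0.124 and 0.129). Adjusted over all genes, neither passed with edgeR without the filter (adjusted p = 0.322 and 0.455) or with DESeq2 (adjusted p = 0.0521 and 0.300).

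Ciita (ENSMUSG00000022504, chromosome 16, 10480059 to 10528418), the coactivator on which the other members depend, was read from 21 to 174 reads per library. It ran from 0.771 through a median of 2.13 to 2.71 CPM in the Knockout, and stood at 1.65, 6.01, 1.41, 2.46 and 6.11 CPM in Wild-Type 1 to 5. Wild-Type 2 and Wild-Type 5 were more than 6 CPM and the other Wild-Type libraries lay inside the Knockout range. The log2 fold change of -0.83 ± 0.43 (SE) did not pass the threshold (edgeR, adjusted p = 0.457). Ciita overlaps Dexi on the opposite strand.

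Of the 7 tested members, 0 passed the threshold of an adjusted p under 0.05, against 0.055% of all genes tested (7 of 12716; edgeR), and 0.00786% passed it as lower in the Knockout. Cd74 alone of the 7 had an unadjusted p under 0.05 (edgeR), against 12.4% of all genes in either direction and 6.08% lower in the Knockout. DESeq2 called 1.09% of the genes to which it gave an adjusted p, 0.44% as lower in the Knockout, and none of the members. All 7 fold changes were below 0, with a median of -0.35, while 51.7% of all genes tested were below 0 and their median was -0.01. The groups overlapped for all 9 members, and 1.32% of all genes tested had groups that did not overlap. Adipocyte markers went the other way, with 5 of 6 genes higher in the Knockout, a median log2 fold change of 0.38 and 4 at an unadjusted p under 0.05, and so did luminal markers, with 4 of 5 higher, a median of 0.31 and 2 at an unadjusted p under 0.05, none past the threshold (edgeR). The part of this shift in the levels of the members was not tested. For the summed level of the 9 members the Knockout ran from 282 through a median of 382 to 435 CPM, and Wild-Type 1 to 5 stood at 403, 529, 363, 393 and 623 CPM.

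The 9 members shared their top libraries. Wild-Type 5 was the highest and Wild-Type 2 the second for all 9, and Knockout 5 was the lowest for 6 of them. Below the top the order differed, and Knockout 2 came next for H2-Aa, H2-Ab1, H2-Eb1, H2-DMb1 and Cd74 but was the lowest library for H2-Oa. On library size alone, without TMM factors, Wild-Type 5 stayed the highest for all 9 while Knockout 1 took the second place for 4. Scaling on library size alone moved the median log2 fold change of all genes by 0.19, and the members then stood between -0.63 (Ciita) and -0.07 (H2-Eb1), all still below 0. Without Wild-Type 2 and Wild-Type 5, a setting added after seeing the data, the fitted differences were -0.03 for H2-Aa, -0.04 for H2-Ab1, 0.00034 for H2-Eb1, -0.14 for Cd74, -0.07 for H2-DMa, -0.04 for H2-DMb1 and 0.10 for Ciita (edgeR, adjusted p from 0.824 for Cd74 to 1.00 for H2-Eb1). The same setting left -0.99 for H2-Oa and -0.91 for H2-Ob on the log2 CPM scale (exact permutation test, adjusted p = 0.357 for each). Since these 2 libraries were the highest of all for every member, their removal could only bring the groups closer. Without Wild-Type 5 alone the log2 fold changes were -0.18 for H2-Aa, -0.15 for H2-Ab1, -0.14 for H2-Eb1, -0.24 for Cd74, -0.27 for H2-DMa, -0.28 for H2-DMb1 and -0.53 for Ciita (edgeR, adjusted p from 0.559 to 0.770). Without Wild-Type 2 alone Ciita stood at -0.55.

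**Figure D2:**
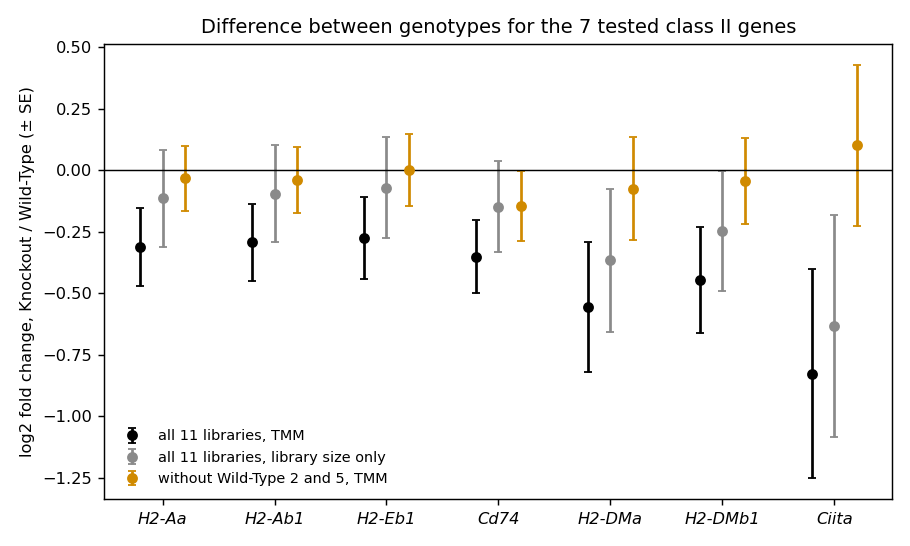
Log2 fold change of Knockout over Wild-Type with its SE for the 7 tested class II genes in 3 settings: all 11 libraries with TMM scaling (black), all 11 libraries scaled on library size only (grey), and without Wild-Type 2 and Wild-Type 5 (orange). The black points lie between -0.83 and -0.27 and the orange points between -0.14 and 0.10.

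Markers of lymphocytes were high in the same libraries. Cd79a, a signalling chain of the B cell receptor, stood at 0.946, 13.9, 1.26, 3.95 and 19.9 CPM in Wild-Type 1 to 5 and at 4.197 CPM in Knockout 1, with the other 5 Knockout libraries between 0.330 and 1.54 CPM. Its partner chain Cd79b stood at 0.420, 8.56, 0.754, 2.34 and 9.69 CPM in Wild-Type 1 to 5, at 2.13 CPM in Knockout 1 and between 0.0367 and 0.361 CPM in the other 5 Knockout libraries. Ms4a1, which encodes CD20, had no reads in 5 libraries, 4 Knockout and 1 Wild-Type, and reached 3.80 CPM in Wild-Type 2. The 10 B cell markers reported here together ran from 1.06 to 15.6 CPM in the Knockout and from 2.24 to 84.1 CPM in the Wild-Type libraries, and all 4 that could be tested were lower in the Knockout with a median log2 fold change of -2.77, none past the threshold (edgeR; all 4 at an unadjusted p under 0.05).

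Of the T cell markers, 7 of 7 tested genes were lower in the Knockout, 3 at an unadjusted p under 0.05 and 0 past the threshold (edgeR). Their sum ran from 2.29 to 10.6 CPM in the Knockout and stood at 2.28, 22.6, 2.73, 10.6 and 36.8 CPM in Wild-Type 1 to 5. Cd3e, a chain of the T cell receptor complex, ran from 0.0682 through a median of 0.187 to 0.755 CPM in the Knockout and stood at 0.140, 1.00, 0.157, 0.395 and 1.75 CPM in Wild-Type 1 to 5. Ccl21a, which lymphatic endothelium and the stroma of lymph nodes secrete to attract lymphocytes, stood at 14.1 CPM in Wild-Type 2, 22.5 in Wild-Type 5, 4.77 in Wild-Type 4 and 2.66 in Knockout 1, and at 0.346 CPM or less in the other 7 libraries. Of the 5 lymph node stroma markers listed, 2 were tested and 0 passed the threshold (edgeR). Besides Ccl21a this was Madcam1, with means of 2.04 CPM in the Knockout and 2.17 in the Wild-Type libraries and a log2 fold change of -0.08 (edgeR, adjusted p = 0.927). Ptprc, the pan-leukocyte CD45, was highest in Wild-Type 5 (43.3 CPM), Wild-Type 2 (25.3 CPM) and Knockout 1 (17.7 CPM). The part of these cells in the class II differences was not tested. In RNA from a whole gland, fewer cells of a type and less RNA per cell cannot be told apart.

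Macrophage markers lay at similar levels in both groups. Csf1r, the receptor of the macrophage growth factor, ran from 12.0 to 24.0 CPM in the Knockout and from 17.7 to 24.0 CPM in the Wild-Type libraries, with Knockout 2, Wild-Type 5 and Wild-Type 2 as its highest libraries. Adgre1, which encodes F4/80, ran from 4.23 to 8.70 and from 4.71 to 8.32 CPM. Of the 10 macrophage and monocyte markers tested, 4 were higher and 6 lower in the Knockout, 0 past the threshold, with a median of -0.03. Of the 9 dendritic cell markers 3 were tested, 1 higher and 2 lower in the Knockout, 0 past the threshold (edgeR; 0 at an unadjusted p under 0.05), with a median of -0.14. Itgax, which encodes CD11c and marks dendritic cells and some macrophages, had its highest level in Wild-Type 5 (13.8 CPM) and its second in Wild-Type 1 (10.8 CPM), with 7.35 CPM in Wild-Type 2. Flt3, the receptor of the dendritic cell growth factor, was under the filter and reached 1.80 CPM in Wild-Type 2 and 1.30 CPM in Wild-Type 5. The plasma cell markers, a late B lineage stage with little class II, ran from 137 to 363 CPM in the Knockout and from 223 to 456 CPM in the Wild-Type libraries.

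**Figure D3:**
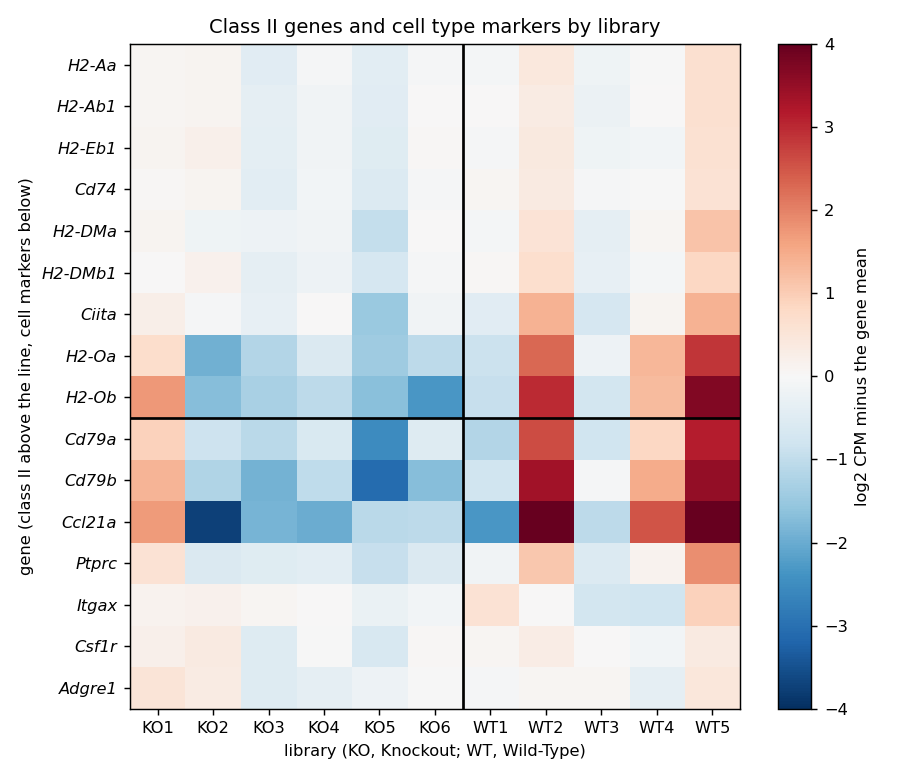
Log2 CPM minus the mean of each gene over the 11 libraries (colour, red above and blue below the mean, saturated at 4 in either direction) for the 9 class II genes above the line and 7 cell markers below it, with Knockout libraries left and Wild-Type libraries right of the vertical line. The columns of Wild-Type 2 and Wild-Type 5 are red for the class II genes and for Cd79a, Cd79b, Ccl21a and Ptprc, and the rows of the classical chains and Cd74 span less than 1 on either side of the mean.

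Compared per length of coding sequence, in TPM, the order of the members was Cd74, then H2-Aa, H2-Eb1 and H2-Ab1, then H2-DMb1 and H2-DMa, then Ciita with H2-Oa and H2-Ob. The mean TPM was 149 ± 42.2 (SD, n = 6) in the Knockout and 162 ± 38.04 (n = 5) in the Wild-Type libraries for Cd74, 61.3 ± 15.8 and 64.5 ± 18.9 for H2-Aa, and 0.280 ± 0.154 and 0.416 ± 0.216 for Ciita. H2-Eb1 (52.4 ± 15.5 and 53.1 ± 14.8) and H2-Ab1 (49.0 ± 13.3 and 50.5 ± 14.5) did not differ beyond their spread, nor did H2-DMb1 (4.35 ± 1.28 and 5.03 ± 1.84) and H2-DMa (2.80 ± 0.886 and 3.54 ± 1.68). Cd74 and the 3 classical chains made up 94.8% to 97.6% of the reads of the 9 members.

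The proportions among the chains stayed within a narrower range than their levels. The ratio of H2-Aa to H2-Ab1, the 2 chains of one dimer, lay between 1.18 and 1.35 in TPM in all 11 libraries. The ratio of H2-Aa to Cd74 was 0.414 ± 0.0164 (SD, n = 6) in the Knockout and 0.395 ± 0.0261 (n = 5) in the Wild-Type libraries, and that of H2-Eb1 to Cd74 was 0.350 ± 0.0112 and 0.326 ± 0.0166. For H2-Eb1 to Cd74 the exact permutation test gave p = 0.0303 (two-sided), and 0.121 after adjustment over the 8 ratios computed. For no ratio was the adjusted p under 0.05. The ratio of H2-DMa to Cd74 was 0.0188 ± 0.00310 and 0.0209 ± 0.00499, so that per length the RNA of DM alpha was a small fraction of that of the invariant chain.

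H2-Ea-ps, the I-E alpha chain gene, is annotated as a polymorphic pseudogene on the reference genome, which comes from C57BL/6J mice, whose haplotype carries a promoter deletion in this gene. It had 547 to 1840 reads in every library. It stood at a median of 26.9 CPM in the Knockout, from 20.1 to 28.7 in 5 libraries and 62.2 in Knockout 2, and at 56.2, 76.1, 50.8, 55.9 and 45.9 CPM in Wild-Type 1 to 5. With all libraries the log2 fold change of -0.87 ± 0.27 SE did not pass the threshold (adjusted p = 0.283 with edgeR), and without Knockout 2 it was -1.19 and passed it (adjusted p = 0.00628). Leaving out this highest Knockout library widens the difference, and 20 of 21 alternatives did not pass the threshold (adjusted p up to 0.555, edgeR without Wild-Type 2).

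Set against its partner H2-Eb1, whose protein it pairs with, H2-Ea-ps stood at separate levels in the libraries. The ratio of H2-Ea-ps to H2-Eb1 in TPM, examined after the values had been seen, was 0.489, 0.528, 0.541, 0.526 and 0.491 in Knockout 1, 3, 4, 5 and 6, and 1.01 in Knockout 2. In Wild-Type 1 to 4 it was 1.08, 1.06, 1.06 and 1.12, and in Wild-Type 5 it was 0.549. No library lay between 0.549 and 1.01, and the same 6 and 5 libraries separated with H2-Aa, H2-Ab1 or Cd74 as the denominator and with counts in place of TPM. The labels give no H2 haplotype for any library. Counts of the H2 genes rest on transcripts annotated on the reference genome, and any part of haplotype in their levels was not tested.

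The group means of this ratio differed by -0.38 (0.597 ± 0.201 SD, n = 6, and 0.973 ± 0.239, n = 5; exact permutation test, two-sided, p = 0.0173, adjusted p = 0.121 over the 8 ratios). Without Wild-Type 5, already seen to lie apart from its group, the difference was -0.48 with an adjusted p of 0.0381 by the same exact test. Without Knockout 2, which also lay apart, it was -0.46 (adjusted p = 0.0635, same test). Leaving out either library could only widen the difference. Of 14 alternatives 13 did not pass the threshold, with an adjusted p of up to 0.267 without Wild-Type 1 (same test). H2-K1, a classical class I gene of the same locus, had the opposite pattern, with 301, 132, 324, 279, 248 and 228 CPM in Knockout 1 to 6 and 137, 152, 103, 149 and 341 CPM in Wild-Type 1 to 5. Knockout 2 was the lowest Knockout library for H2-K1 and Wild-Type 5 the highest library of all. Among the 20 genes whose library profile was nearest to the log2 ratio in either direction (root mean square difference over the 11 libraries), 5 lay on chromosome 17, which holds 4.60% of the 5048 genes compared: H2-K1, H2-Q1, H2-Bl, Btbd9 and Pot1b. Another 4 lay on chromosome 6, which holds 5.15% of them: Nod1, Ppm1k, Pon3 and Hebp1, all of which were nearer to the ratio than any of the genes on chromosome 17. For the 9 members, by contrast, Wild-Type 5 stood beside Wild-Type 2 at the top.

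**Figure D4:**
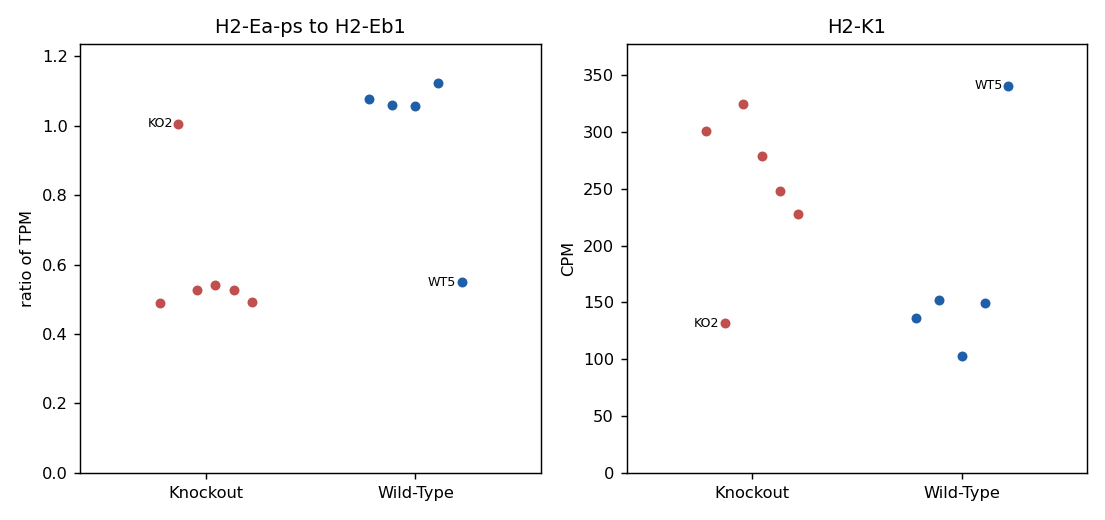
Left, ratio of H2-Ea-ps to H2-Eb1 in TPM, and right, CPM of H2-K1, each dot a library, by genotype on linear axes from 0. Knockout 2 (KO2) lies with 4 of the Wild-Type libraries at 1.01 to 1.12 in the left panel and Wild-Type 5 (WT5) with 5 of the Knockout libraries at 0.489 to 0.549; in the right panel Knockout 2 lies among these Wild-Type libraries and Wild-Type 5 above all other libraries.

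The other genes of the locus were H2-DMb2 and H2-Eb2. H2-DMb2, the second DM beta gene, ran from 0.881 through a median of 1.53 to 3.17 CPM in the Knockout and stood at 3.08, 10.8, 2.54, 5.89 and 11.9 CPM in Wild-Type 1 to 5. Wild-Type 2, 4 and 5 were above all Knockout libraries and Wild-Type 1 and 3 were not. Its log2 fold change of -1.83 ± 0.47 (SE) did not pass the threshold with edgeR (adjusted p = 0.230) and passed it with DESeq2 (-1.83, adjusted p = 0.00602). H2-Eb2, a second I-E beta gene, was under the filter, at 0 to 0.400 CPM in the Knockout and 0.0700 to 0.737 CPM in the Wild-Type libraries.

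Transcript usage was tested for Cd74, H2-Eb1 and Ciita. Minor transcripts of H2-Aa, H2-Ab1 and H2-Ob also had reads and were not tested. Cd74 is made in a shorter form and in a longer form with an extra exon that encodes a thyroglobulin-type domain, a cysteine protease inhibitor. The longer transcript (ENSMUST00000097563.8), with 837 coding bases against 645, took 27.7% ± 1.04 (SD, n = 6) of Cd74 reads in the Knockout and 27.7% ± 2.27 (n = 5) in the Wild-Type libraries (exact permutation test, two-sided, p = 0.985). Its lowest share was 24.4% in Wild-Type 5, the library with the most Cd74, and its highest 30.7% in Wild-Type 1. The longer of the H2-Eb1 transcripts (ENSMUST00000074557.10) took 8.48% ± 0.821 and 8.49% ± 0.519 (exact permutation test, p = 0.972). The adjusted p over the 3 usages tested was 0.985 for each.

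Ciita is transcribed from alternative promoters, which are known to serve dendritic cells, B cells and cells exposed to interferon gamma. Reads of the transcripts that start furthest upstream, Ciita-205 and Ciita-206 (starts at 10480059 and 10480164 on chromosome 16), made up 87.9% ± 24.3 (SD, n = 6) of Ciita reads in the Knockout and 85.7% ± 13.2 (n = 5) in the Wild-Type libraries (exact permutation test, two-sided, p = 0.903). Ciita-201, which starts further downstream at 10488279, was given reads in 4 libraries, 45.1 in Knockout 4, 44.3 in Wild-Type 2, 27.8 in Wild-Type 5 and 18.4 in Wild-Type 4, and none in the other 7. Ciita-203 was given 6.32 reads in Knockout 3 only. The transcripts share most of their sequence, and the split rests on few reads per library.

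**Figure D5:**
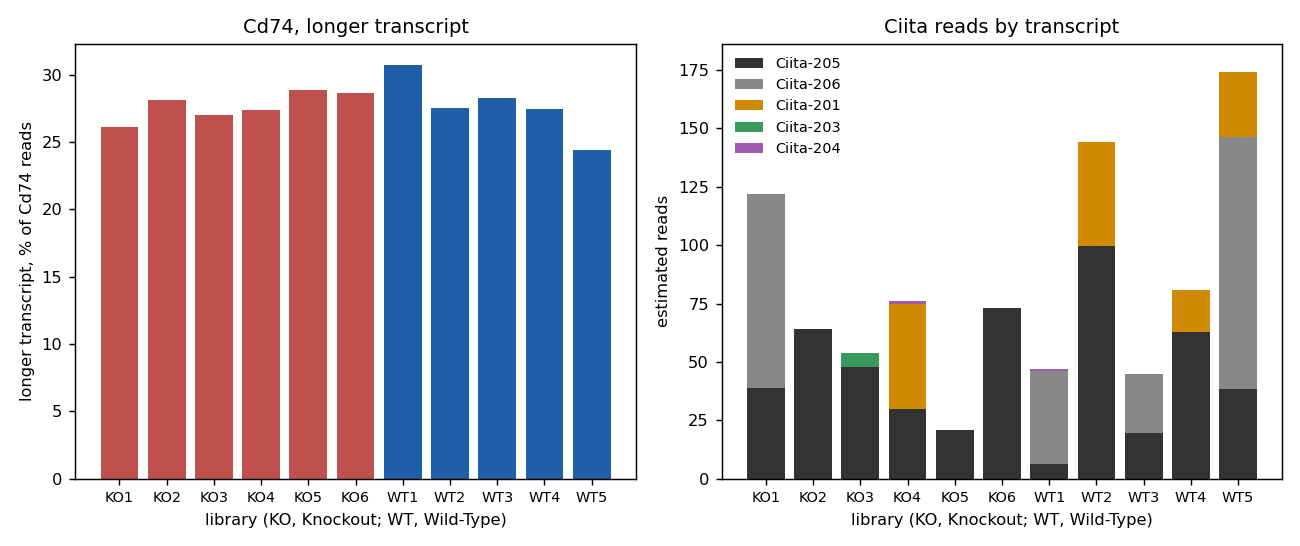
Left, percent of Cd74 reads assigned to its longer transcript in each library, and right, estimated Ciita reads in each library stacked by transcript, not scaled for depth, on linear axes from 0 (KO, Knockout; WT, Wild-Type). The Cd74 bars stay between 24.4% and 30.7%, and Ciita-201 (orange) appears in KO4, WT2, WT4 and WT5 only.

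The wider pathway was described by lists, in which a gene is counted by the sign of its fold change and 0 genes of any list passed the threshold (edgeR). Among the 11 factors that drive class II transcription, 5 were higher and 6 lower in the Knockout, with a median of -0.02 and 2 at an unadjusted p under 0.05. Nfyb, a subunit of the Y box factor, stood at 3.31 ± 0.332 CPM (SD, n = 6) against 2.63 ± 0.237 (n = 5) with a log2 fold change of 0.33 (adjusted p = 0.313, edgeR), and Creb1, an X box factor, at 0.26 (adjusted p = 0.611). Spi1, the PU.1 factor of myeloid and B cells, had -0.54 and Irf4, a factor of lymphocytes and dendritic cells, -0.62 (edgeR, adjusted p = 0.360 and 0.487). The 2 genes were named as those with the smallest p among the lower genes of the list, so their sign was fixed by that choice.

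Of the 9 tested genes that process antigen and invariant chain in the endosome, 5 were higher and 4 lower, with a median of 0.03. Ctsl, a cathepsin that trims the invariant chain in some tissues, had 338 ± 85.1 CPM (SD, n = 6) against 231 ± 84.0 (n = 5) and a log2 fold change of 0.55, and Lgmn, the asparagine endopeptidase, 0.30 (edgeR, adjusted p = 0.384 and 0.313). Ctsh, an aminopeptidase cathepsin, had -0.24 and Ctsz, a carboxypeptidase cathepsin, -0.11 (adjusted p = 0.275 and 0.572, edgeR). Of the 5 genes of class II turnover and traffic, 3 were higher and 2 lower: the tetraspanins Cd63 and Tspan3 at 0.30 and 0.22, the tetraspanin Cd82 at -0.14 and the ubiquitin ligase March8 at -0.07 (edgeR, adjusted p from 0.341 to 0.787). These genes are expressed widely and did not rank the libraries as the members did in sum, at 1422 to 2108 CPM for the endosomal list and 213 to 244 CPM for the turnover list.

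Of the 3 co-stimulation genes that passed the filter, Cd86 had a log2 fold change of 0.09, Cd274 (PD-L1) of -0.41 and Icosl, the ligand of ICOS, of -1.19 (edgeR, adjusted p = 0.921, 0.529 and 0.274). Of 8 genes of the interferon gamma pathway, the main inducer of Ciita outside immune cells, 4 were higher and 4 lower with a median of -0.06. The receptor chain Ifngr2 (0.17), the kinase Jak2 (0.10), the feedback inhibitor Socs1 (-0.73) and the factor Irf1 (-0.15) had adjusted p from 0.494 to 0.782 (edgeR). The class II binding receptors of T cells, Cd4 (-1.51) and Lag3 (-0.31), were both lower without passing the threshold (edgeR, adjusted p = 0.459 and 0.566).

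The class I pathway, which presents peptides from the cytosol, is given for comparison. Of its 14 genes, 6 were higher and 8 lower in the Knockout, with a median of -0.04 against -0.35 for the tested class II members and -0.01 for all genes. H2-K1 had a log2 fold change of 0.51, the peptide-trimming Erap1 0.12, the immunoproteasome subunit Psmb9 -0.42 and the peptide transporter Tap1 -0.30 (edgeR, adjusted p from 0.471 to 0.593). Whether the class I and class II genes differed in response was not tested.

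Of all tested genes with a similar spread over the libraries (8329 genes), the one whose profile was nearest to the mean of H2-Aa, H2-Ab1, H2-Eb1 and Cd74 was Kifc5b, a kinesin gene on chromosome 17, with a root mean square difference of 0.108 on the log2 scale against an SD of 0.31 for the profile itself over the 11 libraries. Il10ra, the interleukin 10 receptor chain, followed with 0.134, Man2b2, a lysosomal mannosidase, with 0.139, Pld4, an endolysosomal nuclease, with 0.145, and Csf1r with 0.148. For H2-Ob, which varied more (SD 2.06, 409 genes compared), the nearest were Cd37 (0.472), Ltb (0.482), Cd79b (0.594), Cd22 (0.695) and Il4i1 (0.695). Cd37, Cd79b and Cd22 are on the list of B cell markers. The likeness is over libraries that share their depth and scaling, and gives no measure of shared control.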

How the data were processed

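Per the submitters' processing notes, reads were quantified with Salmon 1.3.0, DESeq2 1.28.1 was used and the genome build was GRCm38.p6. The authors deposited a table per library that gives, per the file headers, each transcript's length and effective length (the other columns), its TPM and its estimated count. The authors also deposited a gene table of all libraries, whose values are a signal scaled by factors that are not stated. The index, annotation release, bias options and strand setting are not given in the sources used here. Listed lengths were within 3 bases of the coding length for 93.9% of coding transcripts, so TPM refers to coding length.

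Estimated counts were summed per gene with GENCODE M21 (57452 of 58204 transcripts matched, the rest holding 0.195% to 0.265% of reads) and rounded. With edgeR 4.0.16, genes were filtered for low counts, scaled with TMM and fitted by the quasi-likelihood test over 6 Knockout and 5 Wild-Type libraries, with Benjamini-Hochberg adjustment over 12716 genes and a threshold of 0.05. The biological coefficient of variation was 24.1%. Shares, ratios and H2-O genes were compared by exact permutation tests. Alternatives used DESeq2 1.42.0 and limma 3.58.1, other scalings and filters, a replicate block, and leaving out each library. Promoter windows are from RefSeq. Genes outside the members were named by rank of p within each list and direction, as markers, or by nearest profile (predicted genes passed over). Tsc1, Ccl21a and H2-Eb2, and genes near the H2-Ea-ps ratio, were added after values were seen. The members and lists were chosen with earlier results of these data known. Depth limits H2-Oa, H2-Ob and Ciita. One listed marker is not reported here and was left out of its list.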

Additional observations from a re-analysis of the deposited data

Results flagged for a closer look

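In 48 sets of values, each a group of 5 or 6 libraries, the highest or lowest library was compared with the rest by Dixon's criterion, which chance alone meets in about 1 of 20 sets, or 2.4 of the 48. It was met in 8 sets. Knockout 1 stood above the other Knockout libraries for H2-Oa (0.533 CPM against 0.0341 to 0.180), for H2-Ob (0.999 CPM against 0 to 0.0902) and for H2-Eb2 (0.400 CPM against 0 to 0.102). Knockout 5 stood below the others for H2-DMa, at 2.06 CPM against 3.50 to 4.33.

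Knockout 2 stood above the other Knockout libraries for H2-Ea-ps (62.2 CPM against 20.1 to 28.7) and for the ratio of H2-Ea-ps to H2-Eb1 (1.01 against 0.489 to 0.541). Wild-Type 5 stood below the other Wild-Type libraries for that ratio, at 0.549 against 1.06 to 1.12. The upstream transcripts Ciita-205 and Ciita-206 took 39.3% of Ciita reads in Knockout 4, while their share elsewhere in the Knockout ran from 88.3% to 100%.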

How the results depend on the processing

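For the 7 tested members, 0 of 147 values under alternatives passed the threshold (adjusted p 0.266 to 1.00), and of 181 values for all 9 members 179 were below 0. The exceptions were H2-Eb1 (0.00034) and Ciita (0.10) without Wild-Type 2 and Wild-Type 5, a setting added after seeing the data, under which H2-Oa stood at -0.99, H2-Ob at -0.91 and 3 genes in all were called. With limma-voom and sample weights, on all libraries, Ciita stood at -0.39 and H2-DMa at -0.34, against -0.83 and -0.56 in the main fit. The count of genes called over all genes tested was 7, against 146 with DESeq2 (87 higher, 59 lower) and 0 to 28 when each library was left out: 0 without Knockout 3 and without Knockout 6, 2 without Knockout 1 and without Wild-Type 3, 28 without Knockout 2, 13 without Wild-Type 1 and without Wild-Type 5, and 14 without Wild-Type 4; the cause was not tested. Leaving out each library gave -0.35 (without Wild-Type 3) to -0.14 (without Wild-Type 5) for H2-Eb1, -1.03 to -0.53 for Ciita (the same libraries), and -2.47 to -1.55 for H2-Oa, -2.86 to -1.69 for H2-Ob, -0.48 to -0.34 for the ratio of H2-Ea-ps to H2-Eb1, and, in percentage points, -0.81 to 0.78 for Cd74 usage, -0.23 to 0.22 for H2-Eb1 usage and -1.87 to 12.0 for Ciita usage, so none of the usage differences has a settled sign.

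With the replicate number as a block, 0 genes were called and the members ranged from -0.65 (Ciita) to -0.29 (H2-Eb1), Cd74 at -0.37. Libraries with the same number did not deviate together (r of -0.02, -0.10, 0.19, -0.22 and -0.21 for numbers 1 to 5), and no library correlated best with its own number, so no pairing by number was seen. The check rests on these correlations alone and would miss a pairing that leaves none. Depth limits H2-Oa and H2-Ob (0 to 115 reads) and the split of Ciita transcripts.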
